A study of Caenorhabditis elegans with 2 samples.

Results

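MicroRNA genes are the 261 genes of biotype miRNA that the WBcel235 annotation places on the nuclear chromosomes of Caenorhabditis elegans, among 46890 annotated nuclear genes of every biotype. A miRNA gene is called bound here if the summit of at least 1 reproducible ELT-2 peak lay inside it or within 1000 bp upstream of its start. A peak is called reproducible if it is on the list that passed the filter on the irreproducible discovery rate (IDR), which keeps peaks whose ranks repeat between replicates, and its summit is the position of highest signal. By this rule 57 of the 261 miRNA genes were bound, through 58 distinct summits at 51 loci. The peaks come from whole hermaphrodites of strain OP56 harvested at the L3 stage, 40 hours after arrested L1 larvae were released. These animals are unc-119(ed3) III and carry wgIs56, a transgene that makes ELT-2 fused to GFP and FLAG at its C-terminus. Anti-GFP chromatin immunoprecipitation was followed by sequencing in 2 biological replicates, which form 1 group, so that no condition was compared with another and no test between samples was possible. The tagged protein comes from a transgene in 1 strain, and the chromatin is that of all cells of the animal, so weak binding in many cells and binding in few cells cannot be told apart.

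A miRNA is a short RNA cut from a hairpin, and it represses messenger RNAs that pair with its seed, bases 2 to 8 of the mature RNA. miRNA genes with the same seed form a family whose members can act on shared targets. A hairpin can lie in its own transcript, in an intron of a coding gene, or in a cluster that is transcribed as 1 precursor, so the start of the annotated hairpin is often not the start of transcription. ELT-2 is a GATA-type zinc finger factor of the intestine, the tissue in which most genes for digestion and yolk production are transcribed in the worm, and TGATAA is the site it is best known to prefer.

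Mature sequences are shown for some seed groups in which every annotated gene was bound, since the results below turn on them, and for the members with the strongest summits or the best-known roles. They were read from the genome at the arms that RefSeq annotates on WBcel235, 5′ to 3′, with the seed in capitals. All 261 genes matched a RefSeq entry by WormBase identifier, and 260 had at least 1 annotated arm. Of the 2 arms of a hairpin, the one with the seed named is shown, and for mir-77 and mir-60 the 3p arm. RefSeq does not say which arm is the more abundant. The 6 members of the mir-51 family, which is needed for embryonic development, share the seed ACCCGUA.
mir-51, 5p arm: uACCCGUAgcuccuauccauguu
mir-52, 5p arm: cACCCGUAcauauguuuccgugcu
mir-53, 5p arm: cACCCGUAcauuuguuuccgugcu
mir-54, 3p arm: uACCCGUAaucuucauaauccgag
mir-55, 3p arm: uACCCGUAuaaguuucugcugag
mir-56, 3p arm: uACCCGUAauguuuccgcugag
The 3 genes with the seed UUGUACU are mir-239.1, mir-239.2 and mir-238.
mir-239.1, 5p arm: uUUGUACUacacauagguacugg
mir-239.2, 5p arm: uUUGUACUacacaaaaguacug
mir-238, 3p arm: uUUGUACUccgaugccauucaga
The next lines give the 3p arms of mir-77 and mir-60, which had the strongest summits, the pair mir-83 and mir-49 with the seed AGCACCA, and the timing miRNAs lin-4, let-7 and mir-241.
mir-77, 3p arm: uUCAUCAGgccauagcugucca
mir-60, 3p arm: uAUUAUGCacauuuucuaguuca
mir-83, 3p arm: uAGCACCAuauaaauucaguaa
mir-49, 3p arm: aAGCACCAcgagaagcugcaga
lin-4, 5p arm: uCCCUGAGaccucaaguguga
let-7, 5p arm: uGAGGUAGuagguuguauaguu
mir-241, 5p arm: uGAGGUAGgugcgagaaauga

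Genome sequence around 6 summits shows the range of what lay under a peak. Each line holds 201 bases of the plus strand of ce11, the same assembly as WBcel235, with the summit as its middle base. Capitals mark TGATAA or its reverse complement TTATCA. The first 4 loci have at least 1 such site, and the last 2 have none.
mir-77, chrII:12518952-12519152: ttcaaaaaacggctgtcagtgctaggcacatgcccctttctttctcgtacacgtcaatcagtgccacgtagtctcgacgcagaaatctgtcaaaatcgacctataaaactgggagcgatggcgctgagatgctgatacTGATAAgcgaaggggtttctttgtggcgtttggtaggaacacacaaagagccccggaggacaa
mir-60, chrII:6328783-6328983: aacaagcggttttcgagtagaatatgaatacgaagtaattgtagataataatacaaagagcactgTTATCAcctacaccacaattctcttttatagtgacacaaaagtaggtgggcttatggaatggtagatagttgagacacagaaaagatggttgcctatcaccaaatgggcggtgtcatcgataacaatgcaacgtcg
mir-239.1 and mir-239.2, chrX:11791641-11791841: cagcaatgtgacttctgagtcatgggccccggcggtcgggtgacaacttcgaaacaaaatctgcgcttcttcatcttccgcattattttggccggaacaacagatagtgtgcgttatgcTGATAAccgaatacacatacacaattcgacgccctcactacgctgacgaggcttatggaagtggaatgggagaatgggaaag
mir-70, chrV:6665845-6666045: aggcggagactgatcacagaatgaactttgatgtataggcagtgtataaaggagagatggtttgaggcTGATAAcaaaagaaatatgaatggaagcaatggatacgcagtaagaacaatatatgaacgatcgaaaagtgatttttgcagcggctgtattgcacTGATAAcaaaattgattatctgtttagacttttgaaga
mir-54, mir-55 and mir-56, chrX:13145265-13145465: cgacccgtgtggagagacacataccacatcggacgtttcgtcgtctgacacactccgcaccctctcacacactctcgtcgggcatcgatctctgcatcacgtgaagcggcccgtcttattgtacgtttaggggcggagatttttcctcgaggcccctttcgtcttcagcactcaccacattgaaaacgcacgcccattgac
mir-229 and mir-64, chrIII:2172000-2172200: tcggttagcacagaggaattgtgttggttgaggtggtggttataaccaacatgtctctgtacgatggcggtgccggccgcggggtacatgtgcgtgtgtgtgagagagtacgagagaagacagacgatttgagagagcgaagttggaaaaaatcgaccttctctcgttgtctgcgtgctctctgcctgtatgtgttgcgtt

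The bound share of miRNA genes was close to that of coding genes. It was 21.8% (57 of 261 genes, 95% exact interval 17.0 to 27.3%), against 23.7% of 19973 protein-coding genes (4726 genes) when a coding gene was given a window of equal length, 1095 bp. If a summit anywhere inside a coding gene also counted, 5928 coding genes (29.7%) were bound. Stretches of the nuclear genome of that same length held a summit in 9.01% of cases (8247 of 91569). The miRNA interval covers the 23.7% of coding genes and lies above the 9.01% of arbitrary stretches. It covers counting error only, and neighbouring miRNA genes can share a summit.

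**Figure D1:**
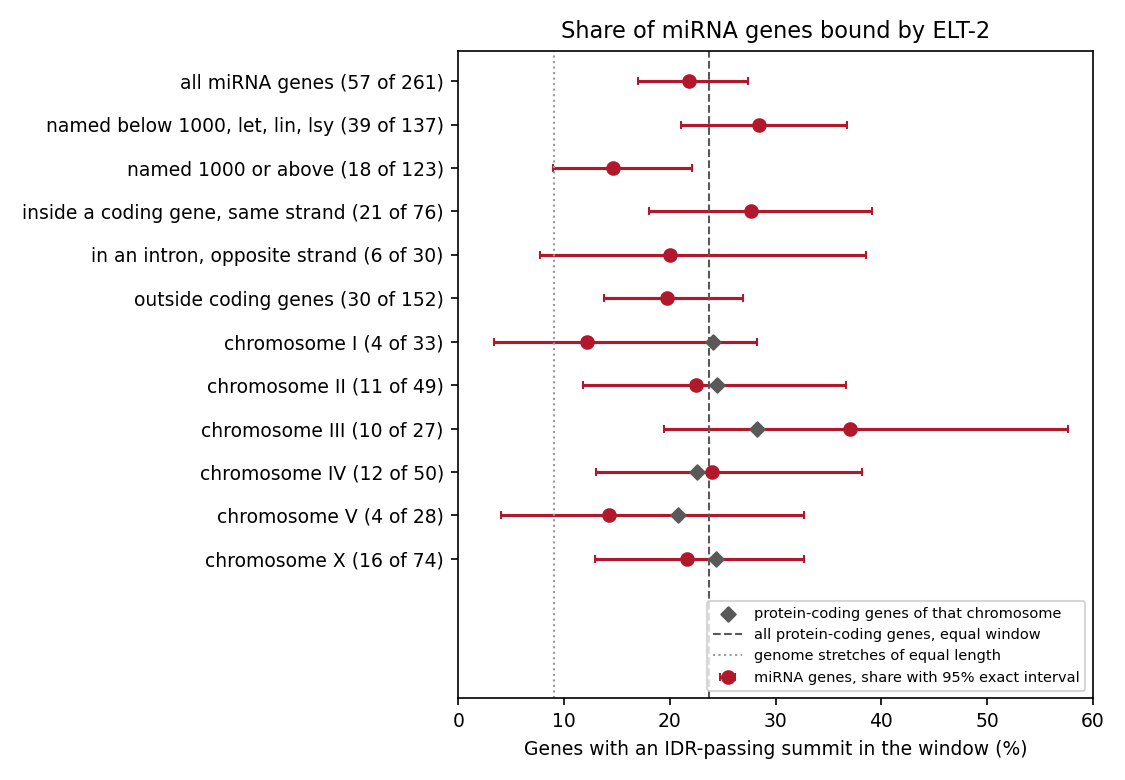
Share of miRNA genes with a reproducible summit in the window (x axis, percent; red points, with 95% exact intervals as bars), for all miRNA genes, by name, by position and by chromosome (rows, with counts). The dashed line marks coding genes with an equal window (23.7%), grey diamonds mark the coding genes of each chromosome, and the dotted line marks genome stretches of equal length (9.01%). Each chromosome's miRNA interval covers its coding share, and the genes named 1000 or above sit at 14.6%, left of the dashed line.

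Bound miRNA genes lay on all 6 nuclear chromosomes. The X chromosome held the most, 16 of its 74 miRNA genes, and chromosome III had the highest share, 10 of 27 (37.0%, interval 19.4 to 57.6%), against 28.3% of the coding genes on III. The shares on the remaining chromosomes were 4 of 33 on I, 11 of 49 on II, 12 of 50 on IV and 4 of 28 on V, with coding shares of 24.0%, 24.5%, 22.6% and 20.7%. On each chromosome the interval of the miRNA share covered the coding share. A split by name, made after the values were seen, set the long-known genes apart from those numbered 1000 or above, which are mostly later entries of the registry. Of the genes named let, lin, lsy or mir with a number below 1000, 39 of 137 were bound (28.5%, interval 21.1 to 36.8%), and of those numbered 1000 or above, 18 of 123 (14.6%, interval 8.91 to 22.1%). The hairpin gene F39B1.3 belongs to neither set and was not bound. The difference between the name sets was not tested.

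Signal at the bound miRNA summits spanned the range of the reproducible peaks apart from its top. Signal is the value the authors deposited for each peak, whose definition the sources used here do not give, and it ranks peaks within 1 list only. The 58 summits had a median signal of 288 (lowest 75.6, highest 1651), against a median of 203 over all 9181 reproducible nuclear peaks (lowest 74.97, highest 9719). By rank in that list, 36 of the 58 fell in the stronger 50% (62.1%, interval 48.4 to 74.5%, which covers 50%). In the strongest 10% there were 5 (8.62%). At the lower end, 4 of 58 fell in the weakest 10%. The miRNA summits thus reached rank 81 and no higher.

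**Figure D2:**
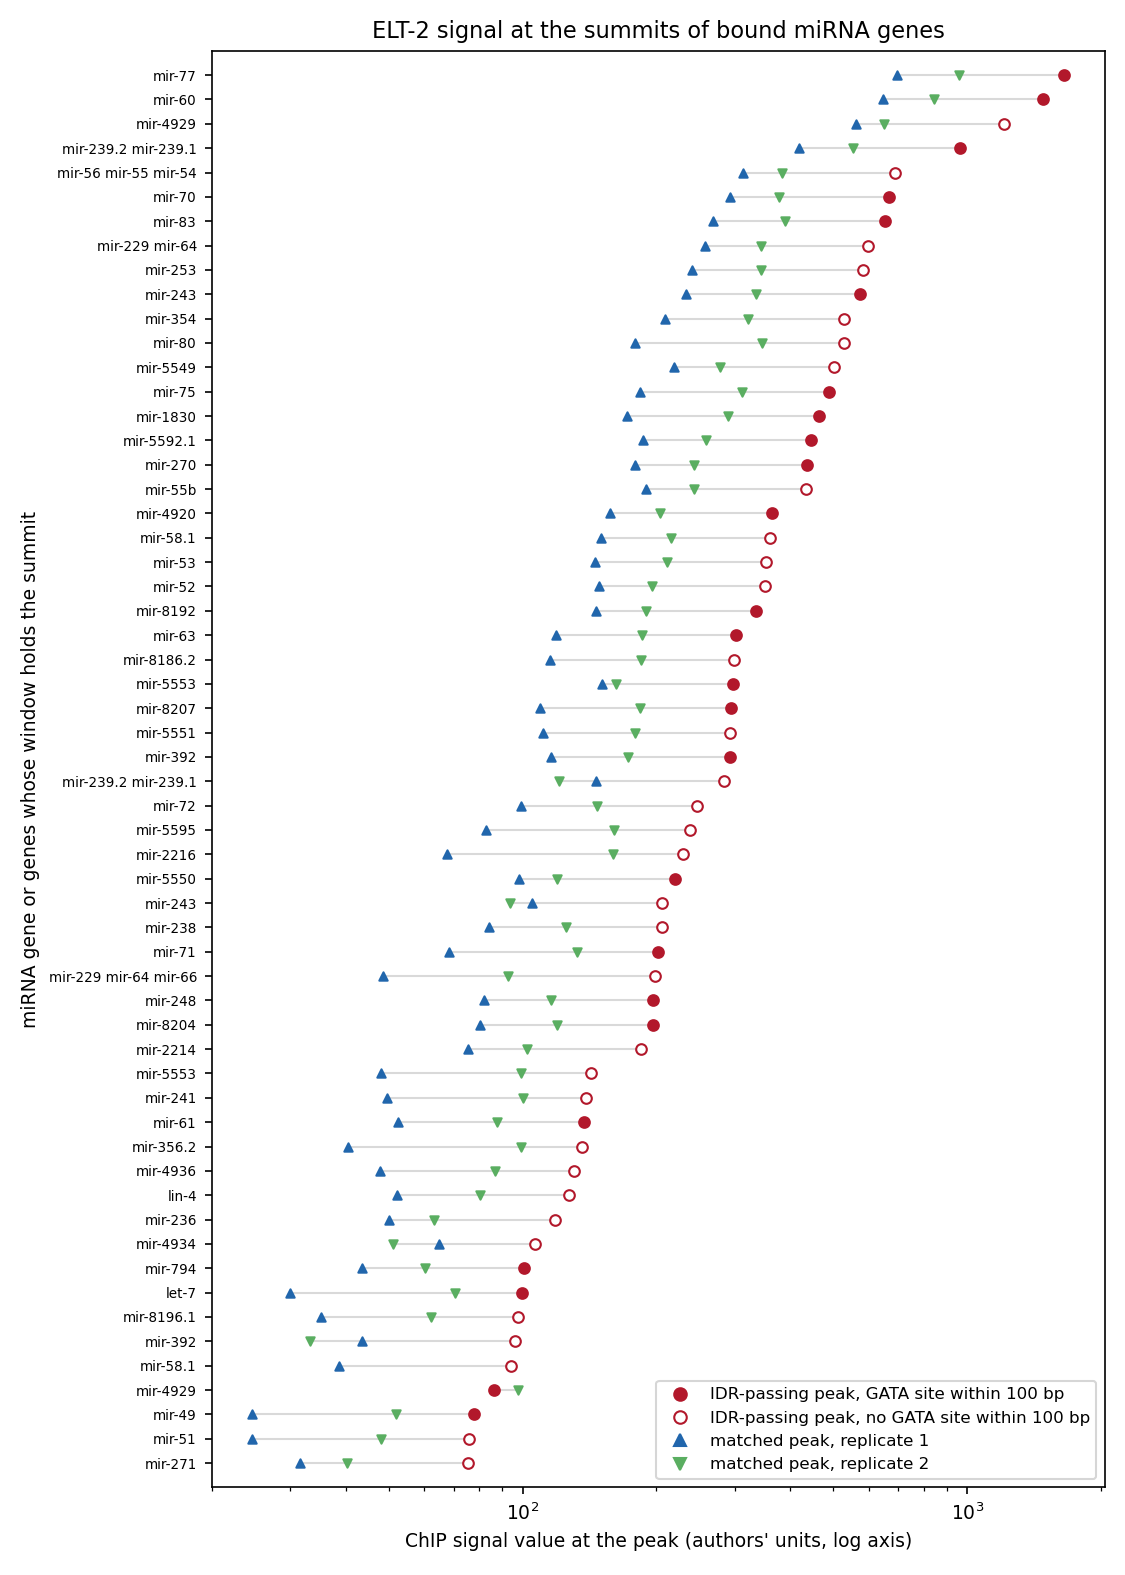
Signal of each of the 58 summits in miRNA windows (x axis, log scale, authors' units; rows ordered by signal, labelled with the genes whose window holds the summit). Circles are the reproducible peaks of the pooled data, filled where TGATAA lies within 100 bp, and triangles are the matching peaks of replicate 1 (up) and replicate 2 (down), whose scale differs from that of the pooled data. The mir-77 and mir-60 summits lead at 1651 and 1482, and mir-51 and mir-271 close the order at 75.6 each.

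The strongest summit of any miRNA gene stood 216 bp upstream of mir-77 on chromosome II, at position 12519052. Its signal was 1651 in the pooled data, 694 in replicate 1 (rank 103) and 956 in replicate 2 (rank 66). The start of srh-70, a chemoreceptor-class gene, was 193 bp away, slightly nearer than mir-77, so the peak cannot be assigned to the miRNA gene alone. The second strongest, at position 6328883 of the same chromosome, lay 84 bp upstream of mir-60, a miRNA known from the intestine. It had a signal of 1482 pooled, 645 in replicate 1 (rank 130) and 840 in replicate 2 (rank 108). The nearest coding start was that of set-4, 2458 bp away, and no other reproducible summit lay within 1300 bp. The sequence printed above for mir-60 has 1 TGATAA site within 100 bp of the summit and 4 matches to the looser site WGATAR (A or T, then GATA, then A or G), which includes TGATAA. Both summits were in the top 130 of each replicate's list.

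The third summit, with a signal of 1210, lay 341 bp upstream of mir-4929 but 160 bp upstream of the start of E01G4.3, the coding gene that holds this hairpin in its sense direction. The fourth served a divergent pair, mir-239.2 and mir-239.1 on X, both known from work on stress and lifespan. It stood 342 bp upstream of mir-239.2 and 704 bp upstream of mir-239.1, between the genes, at position 11791741. Its signal was 964 pooled, 419 in replicate 1 (rank 440) and 555 in replicate 2 (rank 407). A weaker summit 203 bp away, with a signal of 284, lay in the same gap. Summits with signals of 787, past mir-239.1, and 228, past mir-239.2, lay beyond the hairpins and outside their windows. The nearest coding start was that of rsd-3, 6764 bp from the strong summit. The 2 strongest summits with no coding start within 1000 bp were therefore those of mir-60 and of the mir-239 pair.

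Bound genes ranged from all to none of the members of a seed group or of a family grouped by name. Families by name do not always share all 7 bases of the seed. Neighbouring members can share 1 summit, and the spread over groups was not tested. All 6 genes of the mir-51 family were bound, through 4 loci. On X, mir-54, mir-55 and mir-56 lie in a row inside F09A5.3, against its direction, and 1 summit with a signal of 689 (313 in replicate 1, 383 in replicate 2) lay 271 bp upstream of mir-54, the first of them. On chromosome IV, mir-53 had a summit 102 bp upstream with a signal of 354, mir-52 one 274 bp upstream with 350, and mir-51 one 791 bp upstream with 75.6, next to the lowest of all bound miRNA genes. TGATAA was absent within 100 bp of all 4 summits. mir-51 and mir-53 are neighbours, and mir-52 stands elsewhere on the chromosome, so the family was bound at separate places. The mir-55b hairpin overlaps mir-55 on the opposite strand and had its own summit, with a signal of 433, at 474 bp upstream.

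A cluster on chromosome III and the separate gene mir-63 were also bound. mir-229, mir-64 and mir-66 lie in an intron of gcn-1, a gene of the translational control pathway, and 2 summits stood in front of them, 20155 and 20363 bp inside gcn-1 from its nearest annotated start. The first had a signal of 597 (257 in replicate 1, 345 in replicate 2) and lay 352 bp upstream of mir-229, and the second had 199 and lay 144 bp upstream. The second summit alone was within 1000 bp of mir-66, at 800 bp. The promoter window of gcn-1, which runs from 1000 bp before to 500 bp after each of its starts, held no reproducible summit. mir-63 stands alone near one end of X, with a summit 73 bp upstream, a signal of 301 and 1 TGATAA site.

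The 3 genes with the seed UUGUACU were the mir-239 pair and mir-238, whose summit 191 bp upstream had a signal of 206. The pair with the seed AGCACCA, mir-83 and mir-49, was also bound at both genes, but at signals far apart. mir-83, known from cell migration and ageing, had 654 pooled, 268 in replicate 1 and 389 in replicate 2, at 204 bp upstream. mir-49 had 77.7 pooled, 24.7 in replicate 1 and 52.0 in replicate 2, at 268 bp upstream. These families were picked out because all members were bound, so their counts are a description.

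**Figure D3:**
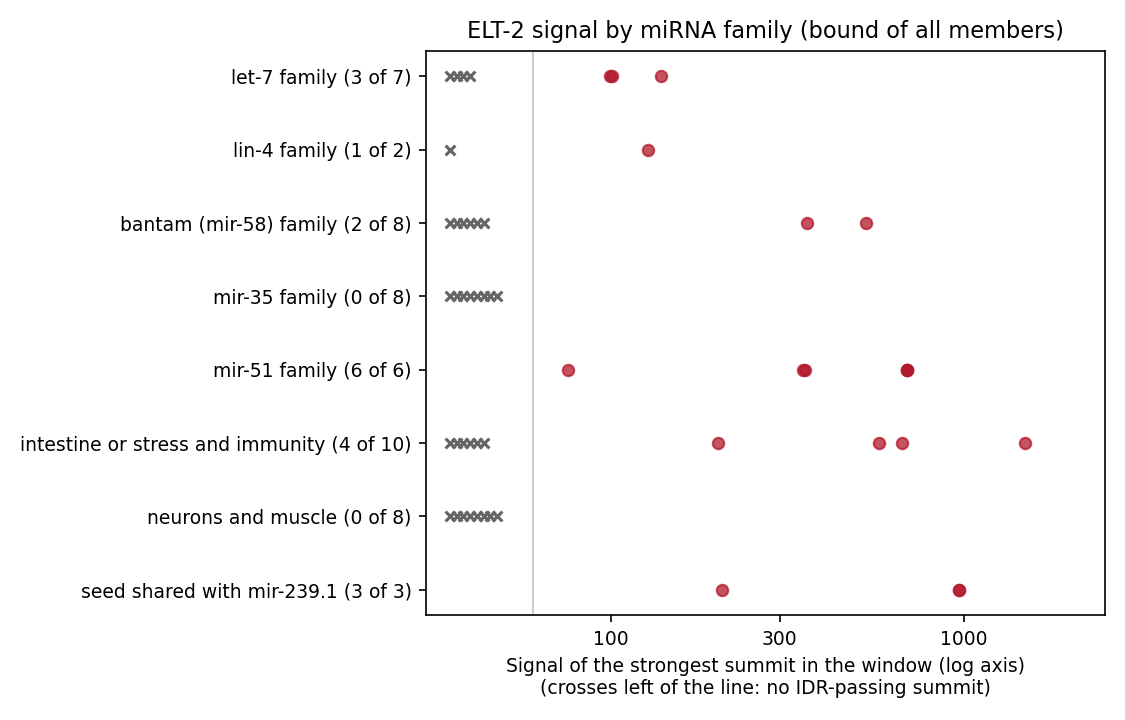
Signal of the strongest summit of each bound member (red points, x axis, log scale) for 7 lists of miRNA genes and for the family that shares a seed with mir-239.1 (rows, with the number bound of all members). Grey crosses left of the line count members with no reproducible summit, and darker points are members that share a summit or have nearly equal signals. All mir-51 members carry a point, and the mir-35 family and the neuron and muscle list carry only crosses.

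**Figure D4:**
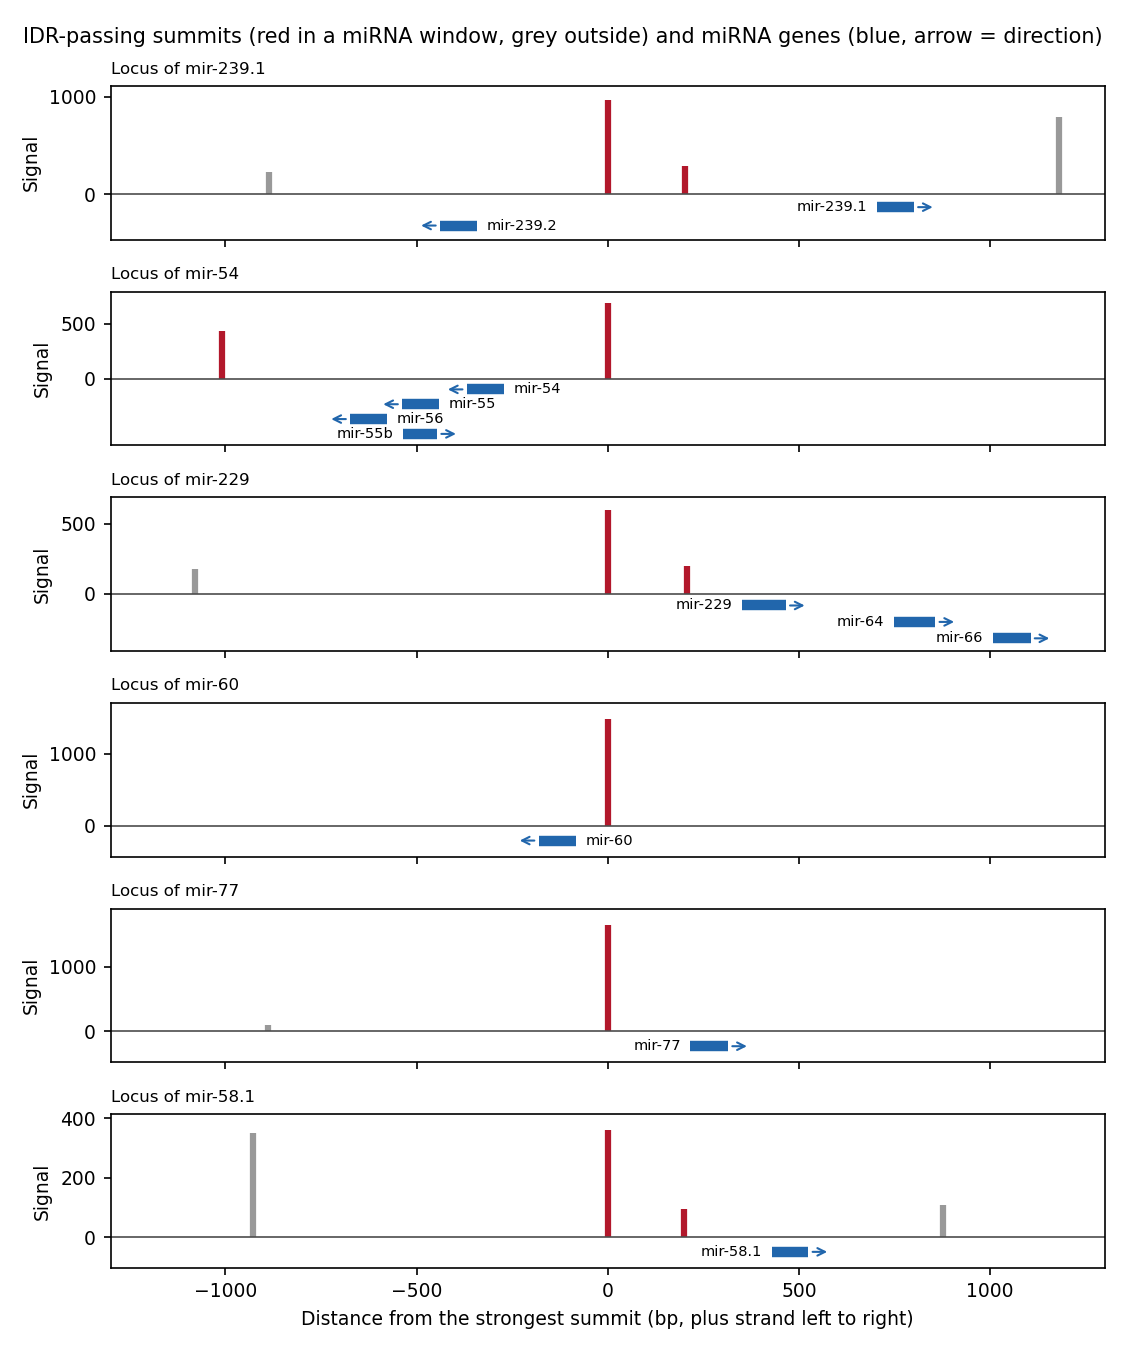
Reproducible summits as vertical lines, with their signal as height (y axis), and the miRNA genes named in the text as blue bars with arrows in their direction, at 6 loci, by distance from the strongest summit (x axis, bp). Red summits lie in a miRNA window, and grey ones do not. A single summit precedes mir-54, mir-55 and mir-56, and the mir-239 pair diverges from the gap that holds its 2 red summits.

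The let-7 and lin-4 families, which include the timing miRNAs, had weak summits or none. Of 7 genes listed as the let-7 family, some of which time the passage between larval stages, 3 were bound: let-7, mir-241 and mir-794. By the seed GAGGUAG alone, 2 of 5 genes were bound, let-7 and mir-241. let-7 had a summit with a signal of 99.7 (29.9 in replicate 1, 70.4 in replicate 2), 530 bp inside the annotated gene. That gene is 1732 bp long, as it spans the primary transcript, and the summit lay 536 bp upstream of the first mature arm, with 1 TGATAA site within 100 bp. The summit of mir-241 lay 435 bp upstream with a signal of 139, and that of mir-794 lay 2 bp upstream with a signal of 101. mir-48, the neighbour of mir-241, mir-84, mir-793 and mir-795 had no reproducible summit in the window, and the nearest one upstream stood between 2201 bp (mir-84) and 18549 bp (mir-795) away. Of the lin-4 family, lin-4 itself had a summit 483 bp upstream with a signal of 127 (52.3 in replicate 1, 80.1 in replicate 2), and mir-237 had its nearest at 1417 bp, outside the window. The summits of the bound genes of both lists had signals between 99.7 and 139, below the median of 288 for all bound miRNA summits.

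The mir-58 (bantam) family, which acts on growth and the dauer pathway, had 2 of 8 genes bound. mir-80 had a summit 244 bp upstream with a signal of 527 (179 in replicate 1, 345 in replicate 2). mir-58.1, in an intron of Y67D8A.2, had one 429 bp upstream with a signal of 360 (150 in replicate 1, 215 in replicate 2) and a second with 94.2 that had no match in replicate 2. mir-58.2, mir-81, mir-82, mir-2209.1, mir-2209.2 and mir-2209.3 were not bound. This list goes by name: by the seed GAGAUCA alone, 1 of 6 genes was bound, mir-80, and that group includes mir-58c but not mir-58.1. The mir-35 family of the early embryo (mir-35, mir-36, mir-37, mir-38, mir-39, mir-40, mir-41 and mir-42) had none of its 8 genes bound. All but mir-42 lie in a row inside Y62F5A.9, against its direction, and share their nearest upstream summit, so they are not separate cases. mir-35 had the nearest summit 2597 bp upstream, with a signal of 164.

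Among 10 miRNA genes known from the intestine or from stress and immunity, 4 were bound. Beside mir-60 these were mir-70, mir-243 and mir-71. mir-70 lies in an intron of pmp-5, which encodes a peroxisomal transporter, and its summit had a signal of 668 (293 in replicate 1, 377 in replicate 2), 310 bp upstream of the hairpin and 132 bp upstream of the pmp-5 start. mir-243, whose mature RNA associates with the Argonaute RDE-1, lies in an intron of R08C7.12. It had a summit with 572 at 767 bp and one with 206 at 565 bp. Both were nearer to the R08C7.12 start, 273 and 475 bp downstream of it, so they cannot be assigned to mir-243 alone. mir-71, which acts in lifespan and starvation survival, had a summit 209 bp upstream with a signal of 201 (68.4 in replicate 1, 133 in replicate 2), 9355 bp from the nearest coding start. All 3 of these genes had a summit with 2 TGATAA sites within 100 bp.

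The other 6 genes of that list were not bound. mir-786, a miRNA of the intestine that sets the rhythm of defecation, and its neighbour mir-240 lay in a stretch of 44346 bp with no summit in any of the 4 lists, the weaker peaks of each replicate included. mir-233, known from the immune response, lay in a similar stretch of 57921 bp. mir-34 had its nearest upstream summit at 1152 bp, mir-252 at 2003 bp and mir-251 at 14024 bp. None of 8 miRNA genes known from neurons, glia or muscle was bound. These were lsy-6, mir-124, mir-790, mir-791, mir-228, mir-234, mir-67 and mir-1, and their nearest reproducible summit upstream was between 6738 and 56900 bp away. No list was tested against the 21.8% of all miRNA genes, since members share loci and were chosen with results known.

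Most of the other bound genes fell into those with no coding start within 1000 bp of their summit and those beside a coding start. mir-75 had a summit 105 bp upstream with a signal of 488 and 2 TGATAA sites, 3637 bp from the nearest coding start. mir-72, mir-248, mir-2214, mir-236 and mir-8196.1 likewise had no coding start within 1000 bp of their summits, whose signals ran from 247 at mir-72 to 97.7 at mir-8196.1. The rest had a coding start within 1000 bp. Among these were mir-253 (583, 38 bp from the F44E7.5 start), mir-5549 (502, 153 bp from rfc-4, a replication factor gene), mir-5592.1 (446, 5 bp from cest-13) and mir-270 (436, 172 bp from T26C12.1). Signals between 220.5 and 336 were found at mir-8192, mir-8186.2, mir-5553, mir-8207, mir-5551, mir-392, mir-5595, mir-2216 and mir-5550. mir-8204 followed with 197, mir-61 with 138, mir-356.2 with 136, mir-4936 with 131, mir-4934 with 107 and mir-271 with 75.6, the lowest.

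By position, 27 of the 109 miRNA genes inside or overlapping a coding gene were bound (24.8%) and 30 of the 152 outside coding genes (19.7%). In the sense direction of the host, 21 of 76 were bound, 18 of 68 in introns and 3 of 8 at exons. In the opposite direction, 6 of 30 in introns and 0 of 3 at exons were bound. Of 8 mirtrons, hairpins whose ends fall within 3 bp of both ends of an intron, 1 was bound, mir-4920 in sph-1, with a signal of 364. For the 76 sense genes, the promoter window of the host held a summit in 14 of 21 bound genes (66.7%, interval 43.0 to 85.4%). Among unbound genes it did in 20 of 55 (36.4%, interval 23.8 to 50.4%). Genes that share a host, as in the gcn-1 cluster, count separately in these intervals. The difference was not tested. The share of bound genes is in part fixed by the bound rule: in 11 of those 14 the same summit counted for the miRNA gene and its host. Only mir-71, mir-2214 and mir-55b were bound and had a bound host promoter without such a shared summit. In 11 of the 21, the summit of the miRNA gene itself lay in the host's promoter window, as for mir-70 in pmp-5, mir-354 in the ribosomal protein gene rps-20 (signal 529) and mir-1830 in paic-1 (signal 464). For these 11, binding to the host's promoter and to the hairpin's own upstream region cannot be told apart. The nearest coding start to the mir-354 summit was that of another gene, ekl-4, with the summit 169 bp upstream of it. The gcn-1 cluster, mir-58.1 and lin-4 were sense hairpins whose host promoter held no summit. let-7 counts as sense at an exon only because its annotated gene of 1732 bp overlaps C05G5.7. Its mature arms lie upstream of the nearest C05G5.7 start, between that start and the summit. The summit stood 1011 bp upstream of that start, just outside the promoter window.

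Coding starts, those of host genes included, lay near part of the 58 summits. Shares over all reproducible peaks are not given for the counts that follow. Of the 58 summits, 30 fell in the promoter window of some coding gene, 20 lay nearer to a coding start than to the miRNA start, and 15 lay between a miRNA gene and a coding gene that diverge from the summit, both starting within 1000 bp. Counted by gene, 41 of the 57 (71.9%) had at least 1 summit that was nearer to their own start than to any coding start. When each summit counted only for the nearest gene start of any biotype, 25 genes were bound. The strongest summit of each bound gene lay a median of 274 bp upstream of the hairpin. It stood 1 to 250 bp upstream in 22 genes, 251 to 500 bp in 17, 501 to 750 bp in 6 and 751 to 1000 bp in 9, and in 3 (let-7, mir-8196.1 and mir-4936) it was inside the gene.

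The window's edge cut through a continuous set of distances. Taking the nearest summit of each bound gene, those that lay farthest upstream were at mir-5592.1 at 934 bp, mir-61 at 928 bp, mir-354 at 840 bp, mir-356.2 at 804 bp and mir-66 at 800 bp. Just outside were mir-353 at 1030 bp (signal 396), mir-250 at 1069 bp (signal 138, the summit that mir-61 was called on), mir-62 at 1075 bp (signal 755), mir-85 at 1131 bp (signal 203) and mir-8205 at 1148 bp (signal 78.2). mir-62 lies in its host ugt-50, whose promoter window holds that summit. Of the 204 unbound genes, 22 had a reproducible summit between 1000 and 2000 bp upstream. A further measure of near misses is the whole pooled list of 30000 peaks, which holds weaker peaks and background: 53 of the 204 had a summit there, at ranks from 9278 (mir-2218.1) downward, and 33 had one in both replicate lists. mir-73 and mir-74, which share a summit at pooled rank 9352, and mir-4932 and mir-4806, at 9452 and 9475, were also close below the 9198 peaks that passed.

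The replicates ranked the matched miRNA summits within 2 times of each other. A summit within 100 bp was found in replicate 1 for 57 of the 58, in replicate 2 for 57, and in both for 56. The 2 exceptions were weaker second summits, that of mir-4929 (86.1), with no match in replicate 1, and that of mir-58.1 (94.2), with none in replicate 2. In none of the 56 did the ranks differ by more than 2 times, and 18 ranked higher in replicate 1. Among the strongest 9198 peaks of each replicate, as many as passed the reproducibility filter, there were 53 and 55 of the 58, and 51 were in both. The filter itself selects peaks whose ranks repeat, so this likeness is in part a property of the list. Those that ranked higher in replicate 1 included the weaker second summits of the mir-239 pair (rank 2646 in replicate 1, 4551 in replicate 2) and of mir-392 (7749 and 10915).

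**Figure D5:**
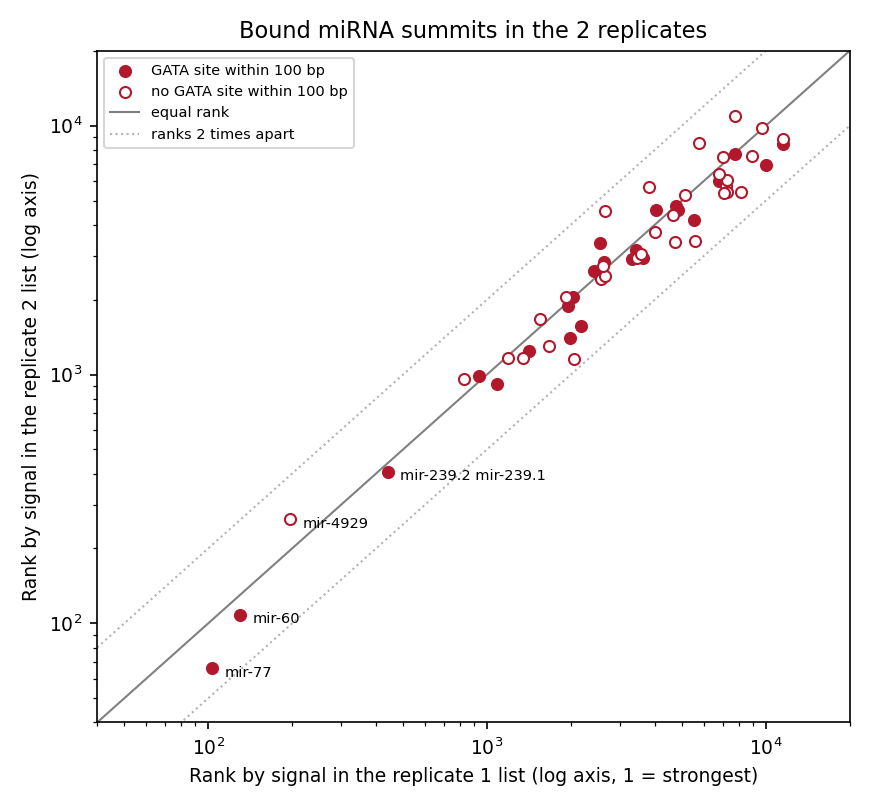
Rank by signal in the replicate 1 list (x axis) and the replicate 2 list (y axis), both on log scales with 1 as the strongest, for the 56 miRNA summits matched in both. Filled points have TGATAA within 100 bp, the solid line marks equal ranks, and the dotted lines mark ranks 2 times apart, which no point passes.

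TGATAA was no more frequent at miRNA summits than at reproducible peaks in general. A site on either strand lay within 100 bp of 25 of the 58 summits (43.1%, interval 30.2 to 56.8%), against 53.9% of all 9181 (4945 peaks). Neighbouring summits of overlapping peaks, as at the mir-239 pair, count separately in the 58, in the 9181 and in the interval. In windows of the same length centred 500 bp to each side, 19 of 116 (16.4%) had it around the miRNA summits and 18.7% of 18362 around all summits. At least 2 sites were present at 12 of 58 miRNA summits (20.7%), against 24.8% of all. WGATAR was present at 37 of 58 (63.8%), against 69.6% of all, which left 21 miRNA summits with neither. The stronger 29 miRNA summits had TGATAA in 16 cases and the weaker 29 in 9.

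In the whole window of the bound rule, sites were about as frequent in bound as in unbound genes. TGATAA occurred in the windows of 37 of 57 bound genes (64.9%, interval 51.1 to 77.1%) and of 128 of 204 unbound genes (62.7%, interval 55.7 to 69.4%). WGATAR occurred in 53 of 57 bound and 179 of 204 unbound genes. A match is a run of letters and shows nothing of binding by itself.

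Another sequence feature was looked for after the summit sequences had been read: runs of GAGAGA or its reverse complement TCTCTC, as in the mir-229 line above. They lay within 100 bp of 26 of the 58 miRNA summits (44.8%, interval 31.7 to 58.5%), against 27.4% of all summits, and in 7 of 116 flanking windows (6.03%), against 10.2% of all flanks. Such runs were found at 19 of the 33 miRNA summits without TGATAA (57.6%) and at 7 of the 25 with it (28.0%). Over all summits the shares were 36.8% of 4236 without TGATAA and 19.3% of 4945 with it. The median GC content of the 201 bases was 43.8% at miRNA summits without TGATAA and 39.3% at those with it, against 40.8% and 35.8% over all summits. Since the feature was chosen on these sequences, the counts describe them and were not tested.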

How the data were processed

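The samples are 2 biological replicates of 1 anti-GFP ChIP-seq experiment on whole L3 animals, and the ce11 lists of peaks that the authors deposited were used: 1 for each replicate (28033 and 30000 peaks), 1 from both replicates pooled (30000) and 1 of the 9198 peaks left by a filter on the irreproducible discovery rate (IDR). The deposited signal of a peak is the authors' value, without a stated definition, and it was used only to rank and describe peaks within a list. The deposited −log10 q-value was not used for ranking. The deposited summit offset gave each summit, counted from 1. The read depth is unknown, with aligner, peak caller and IDR cut-off not given in the sources used here.

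Of the peaks, 17 mitochondrial ones were left out, and 9181 remained. Genes and transcripts came from Ensembl release 115 (WBcel235), and miRNA symbols, mature arms and genome sequence from RefSeq on the same assembly. A coding gene's equal window ran from 1000 bp upstream through the first 95 bp, the median miRNA gene length. Replicate peaks were matched by summits within 100 bp. Both strands were searched for sites. Intervals are 95% exact (Clopper-Pearson) and cover counting error only. The members and lists were chosen with earlier results of these data known. The text names the bound genes, all members of the 7 lists, and the 5 unbound genes nearest to the window; F39B1.3 and the unbound genes ranked just below the IDR cut-off were chosen after their values were seen. Families by seed, the split by number and the GAGAGA runs were chosen after the values were seen. The summit and site rules were tested on simulated data. Python 3.11.15, numpy 2.4.6, scipy 1.17.1 and matplotlib 3.10.9 were used. Alternatives were other windows, peak sets, radii and assignments of summits. 1 bound gene is counted but not reported by name.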

Additional observations from a re-analysis of the deposited data

How the results depend on the processing

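The count of 57 bound genes was 44 with 500 bp upstream, 79 with 2000 bp, 54 without the inside of the gene, 74 with both sides of the gene and 39 with the stronger 50% of peaks. It rose to 110 with the whole pooled list, which includes background, fell to 25 when each summit counted only for the nearest gene start of any biotype, and was 41 when no coding start could be nearer. Restricted to genes outside coding genes it was 30 of 152. The shorter window, the stronger 50% of peaks and the restriction to genes outside coding genes leave fewer summits or genes eligible. The counts of 25 and 41 keep every summit and gene, and drop calls whose summits were nearer to the start of another gene. From the strongest peaks of 1 replicate alone it was 58 and 59, of which 56 and 54 genes were shared with the 57. Cutting let-7 to its hairpin, an alternative added after the data were seen, left 57.

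TGATAA at 25 of 58 summits was 21 within 50 bp, 32 within 200 bp, 37 with WGATAR, and 24 to 26 from 1 replicate. Summits found in both replicates numbered 51 to 58 with other matching rules. The median signal of 288 was 293 with 500 bp and 226 with 2000 bp. No paired analysis was possible because the replicates form 1 group. Unknown read depth limits what can be said of weak summits, and 2 replicates allow no test.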
